A study of Mus musculus with 24 samples.

Results

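The LIF-Stat3 and Myc genes were followed in mouse embryonic stem (ES) cells that lack a subunit of the m6A RNA methyltransferase. They are Lifr, Il6st, Jak1, Stat3, Socs3, Pim1, Pim3, Myc, Mycn and Max, which were chosen by name as the receptor, kinase, transcription factor and target genes of this pathway. The choice was made with earlier results of these data known, so counts of members set beside all genes are descriptions. All 10 of them were present, out of 47937 gene identifiers, in both the RNA-seq table and the MeRIP-seq table, and all 10 passed the filter on low counts in each. MeRIP-seq is an immunoprecipitation (IP) of fragmented RNA with an antibody to m6A, sequenced beside the input RNA.

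Each of the 4 ES cell lines gave 2 biological replicates for RNA-seq, for input and for IP, 24 libraries in all. WT26 is a wild-type line of 129/Sv x C57Bl6 background. Mettl14 KO is 1 clone (A10) that was derived from WT26 by CRISPR with guides against Mettl3 and Mettl14 together, and it carries a frameshift deletion on both Mettl14 alleles with the catalytic domain of Mettl3 intact. RBC is an engineered line of the same background with Rosa26 BirA-V5 and Cre-ERT2, and Mettl3 KO is 1 clone (2c4d) that was derived from it. All lines grew on gelatin (2%) in medium with 15% serum replacement and LIF from conditioned COS-7 medium, so every library comes from cells under LIF and no library without LIF was analysed here. According to the study's methods the RNA was nuclear, while the labels call it total RNA, and libraries were stranded and depleted of ribosomal RNA.

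LIF binds Lifr, which pairs with the shared signal transducer gp130, the product of Il6st. The kinase Jak1 on these receptors then phosphorylates Stat3, which enters the nucleus and switches on genes such as Socs3, the feedback inhibitor of the pathway, and the serine/threonine kinases Pim1 and Pim3. In mouse ES cells this pathway sustains self-renewal, and Myc is one of its outputs. Myc and Mycn are transcription factors that bind E-box DNA as dimers with Max. The mark m6A is placed on RNA by the pair of Mettl3, the catalytic subunit, and Mettl14, which holds the RNA, and it lies mostly in the context of the letters GGACT and close variants, often near stop codons.

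RNA-seq totals ran from 11321459 to 13743181 counts per library. MeRIP-seq totals ran from 9394163 to 28441282, with the 8 libraries numbered 2 (9394163 to 16239506) all below the 8 numbered 1. All 10 ES cell markers (Pou5f1, Sox2, Nanog and others) were over 50 normalized counts in every RNA-seq library, and their summed level was 37147 and 38324 for WT26. It was 26635 and 26767 for Mettl14 KO, 33228 and 33844 for RBC, and 18578 and 19458 for Mettl3 KO. Summed markers were between 28.3 and 116.3 for 8 fibroblast genes, 55.8 and 176.3 for 8 primitive endoderm genes, 29.9 and 64.3 for 6 trophoblast genes, 33.1 and 83.7 for 5 mesoderm genes, and 659 and 1532 for 6 neural genes. The targeted genes gave only a weak check of the labels. The small deletion in Mettl14 leaves most of the transcript to be counted, and the lesion in Mettl3 KO is not described in the sources used here. Mettl14 had 296.5 and 315.6 normalized counts in Mettl14 KO against 400.6 and 357.5 in WT26, and Mettl3 had 880 and 820.9 in Mettl3 KO against 927.7 and 978.9 in RBC.

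The exons of these genes were searched for GGACT, and no test of these occurrences against the IP values was made. Myc held 8 in 2717 exon bases, 2.94 per kb, which is at percentile 98.8 of 13587 protein-coding genes, whose median was 1.01 per kb. The other members lay between 0.61 per kb in Mycn and 1.49 in Pim1, with 0.63 in Stat3, 1.04 in Socs3 and 1.39 in Max. The fitted log2 IP over input in WT26 was 1.97 for Myc, which had the highest density of the members. It was 1.92 for Mycn and -1.18 for Stat3, which had the lowest densities. Below is the occurrence nearest to the stop codon in the 4 members with the strongest IP over input in WT26 and in Stat3, the member with the weakest, read from GRCm38 on the strand of the gene with the 5 letters in capitals.
Myc, chr15:61989831-61989851, + strand, 67 bases before the end of the stop codon: tctgaaaaGGACTtattgagg
Mycn, chr12:12937004-12937024, − strand, 8 bases before it: acacgctcGGACTtgctaaac
Socs3, chr11:117967616-117967636, − strand, 73 bases before it: ggccacctGGACTcctatgag
Max, chr12:76938151-76938171, − strand, 407 bases past it: tgtttggtGGACTttgtgact
Stat3, chr11:100888253-100888273, − strand, 442 bases past it: agaagctaGGACTaagcccag
All of them lie in the same exon as the stop codon. A match of these letters is a description and not a mapped m6A site, since the counts are per gene and do not place the IP signal along the transcript.

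Promoters of the members were searched on both strands for TTCNNNGAA, the palindrome that STAT dimers bind, and for the E-box CACGTG. RefSeq promoters of GRCm38.p6 (250 bases before to 50 after each start site) held the first in 8.3% and the second in 7.2% of 32851 cases. Socs3 held the first motif and Pim1, in 1 of its 2 promoters, and Max held the second, with motif letters in capitals.
Socs3, chr11:117969506-117969526, − strand, 154 bases before the start site: ccagccTTCTTAGAAgggagg
Pim1, chr17:29493021-29493038, + strand, 58 bases before the start site: aggaatCACGTGgtctga
Max, chr12:76962240-76962257, − strand, 3 bases before the start site: cccggtCACGTGttaggg
The promoter table has no entry for Myc.

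Per kb of merged exons, Pim3 was the highest member in WT26 with 676 ± 56.6 normalized counts per kb (SD, n = 2), followed by Socs3 with 394 ± 6.17, Lifr with 392 ± 12.6 and Il6st with 265 ± 0.559. Then came Mycn with 184 ± 1.35, Stat3 with 183 ± 2.28, Pim1 with 155 ± 10.1 and Max with 144 ± 7.66, and Jak1 with 95.6 ± 2.25 and Myc with 46.2 ± 10.7 were the lowest. Replicates overlapped between the neighbors Socs3 and Lifr, Mycn and Stat3, and Pim1 and Max, so these did not differ beyond their spread. Myc, the transcription factor most tied to growth, thus had the lowest level per length in WT26, at percentile 45.8 of the genes tested, while Pim3 was at percentile 95.9.

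The order was much the same in RBC, with Pim3 at 587 ± 16.8, Socs3 at 510 ± 26.7 and Lifr at 406 ± 12.1 normalized counts per kb at the top and Jak1 (68.8 ± 0.297) and Myc (67.3 ± 10.1) at the bottom, their replicates overlapping. In both knockouts Lifr stood first, with 332 ± 13.7 in Mettl14 KO and 369 ± 9.06 in Mettl3 KO. Pim3 had 281 ± 1.12 in Mettl14 KO and 358 ± 43.1 in Mettl3 KO, where its replicates overlapped with those of Lifr. Myc was last in each, with 14.6 ± 2.34 in Mettl14 KO and 43.8 ± 0.415 in Mettl3 KO.

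**Figure D1:**
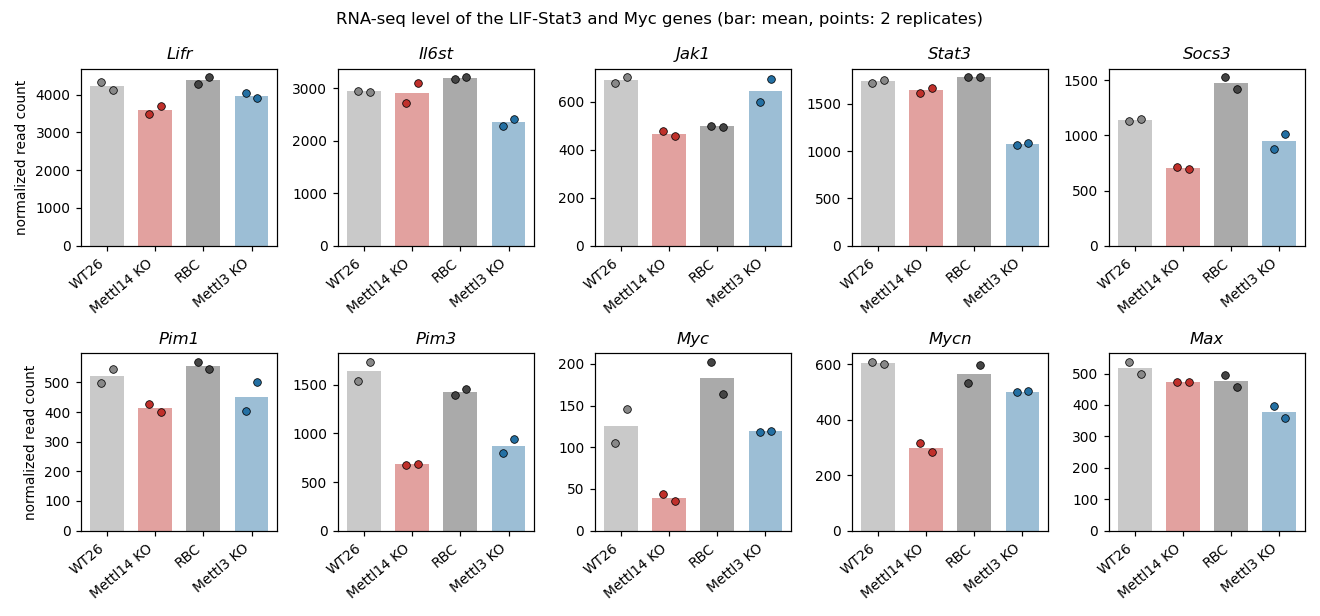
RNA-seq level of each member in the 4 lines, in normalized read counts on a separate axis for each gene, with a bar for the mean and a point for each of the 2 replicates. Pim3, Myc and Mycn are lower in Mettl14 KO than in WT26, Stat3 is lower in Mettl3 KO than in RBC, and Jak1 is lower in Mettl14 KO than in WT26 but higher in Mettl3 KO than in RBC.

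The first comparison asks how these genes change in Mettl14 KO cells against their parent WT26. The Myc genes and Pim3 fell furthest, the LIF receptor genes and Stat3 moved little, and no member rose. Of the 10 members, 3 (Pim3, Myc and Mycn) were lower at an adjusted p of at most 0.05 with a log2 fold change below -1, a rule that 6.57% of the 17021 genes tested met. By the adjusted p alone 7 members were lower, against 27% of the genes tested, and 0 were higher, against 25.5%, since all 10 log2 fold changes were negative. The median log2 fold change was -0.45 over the members and 0 over all genes. All tests of RNA-seq levels are edgeR's quasi-likelihood test with Benjamini-Hochberg adjustment, and their p-values measure the spread between 2 replicates of each line, which cannot tell the effect of the gene from that of the single clone. In RNA from a culture, fewer cells of a kind and less RNA in each cell cannot be told apart. The summed ES cell markers were also lower in Mettl14 KO than in WT26, as given above, with all 10 of them lower by the adjusted p and a median log2 fold change of -0.55, and their part in these changes was not tested. Among other cell types, the 8 primitive endoderm markers summed to 55.8 to 56.1 in WT26 and 168.5 to 176.3 in Mettl14 KO, where 4 of the 4 tested were higher (Gata4, Gata6, Sox7 and Dab2) and Ttr was at 0 in all libraries. The control line RBC also had more than WT26, with 133.3 and 147.9, and 2 of the 4 tested were higher in it. In Mettl3 KO the sums were 101.7 and 128.9, with 0 of the 4 higher and 1 lower than in RBC. The 6 neural markers summed to 936.9 and 971.6 in WT26 and to 659 and 691.7 in Mettl14 KO, with 1 higher and 2 lower of 5 tested, and the 5 mesoderm markers to 63.3 and 83.7 and to 37.1 and 33.1. The part of these markers was not tested either.

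Among the transcription factors, Myc (chr15:61985391-61990374, + strand, 4 merged exons) had 104.9 and 146 normalized counts in the 2 WT26 libraries and 44.1 and 35.1 in the 2 Mettl14 KO libraries. Both knockout libraries lay below both controls. Myc fell by 1.65 on the log2 scale (SE 0.205, adjusted p = 2.59e-06, edgeR), to 0.319 of its WT26 level. Its counts are the lowest of the members, 36 and 44 reads in the Mettl14 KO libraries. Mycn (chr12:12936093-12941914, − strand), the relative of Myc with the higher level in ES cells here, had 608.6 and 602.3 in WT26 and 315.5 and 282.5 in Mettl14 KO, again without overlap. Mycn fell by 1.02 (SE 0.0835, adjusted p = 1.48e-08, edgeR), close to the limit of 1, and without replicate 2 of Mettl14 KO the fall was -0.94. Max (chr12:76937269-76962201, − strand), the partner of both, had 537.2 and 498.2 in WT26 and 471.7 and 473.5 in Mettl14 KO. Its log2 fold change was -0.13 (SE 0.0797, adjusted p = 0.173, edgeR).

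Of the genes that Stat3 activates, Pim3 (chr15:88862186-88865726, + strand) had 1543 and 1737 normalized counts in WT26 and 680 and 683.9 in Mettl14 KO. The groups stood well apart, and Pim3 fell by 1.26 (SE 0.0745, adjusted p = 2.15e-10, edgeR). Socs3 (chr11:117966079-117970047, − strand) had 1127 and 1152 in WT26 and 712.1 and 695.6 in Mettl14 KO. Socs3 fell by 0.69 (SE 0.069, adjusted p = 1.73e-07, edgeR), without overlap. Pim1 (chr17:29490753-29496112, + strand) had 496.5 and 544.3 in WT26 and 427.7 and 400.4 in Mettl14 KO, with a log2 fold change of -0.33 (SE 0.0947, adjusted p = 0.00747, edgeR). That call was lost without replicate 2 of WT26 (adjusted p = 0.0729) or of Mettl14 KO (adjusted p = 0.0749). Of its 3362 exon bases 488 are shared with the antisense gene Gm26885, and whether the counting used strand is not given in the sources used here.

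Of the receptor, kinase and Stat3 genes, 2 passed the test, and Jak1 fell further than Lifr. Jak1 (chr4:101152367-101265282, − strand) had 679.1 and 702.2 normalized counts in WT26 and 478.7 and 454.9 in Mettl14 KO, and fell by 0.56 (SE 0.079, adjusted p = 1.04e-05, edgeR). Lifr (chr15:7090614-7197489, + strand) had 4321 and 4129 in WT26 and 3477 and 3686 in Mettl14 KO, and fell by 0.24 (SE 0.0508, adjusted p = 0.000739, edgeR). Neither gene's groups overlapped. Il6st (chr13:112464070-112510086, + strand) had 2946 and 2938 in WT26 and 2714 and 3099.9 in Mettl14 KO, which lie on both sides of the controls. Stat3 (chr11:100885098-100939540, − strand) had 1724 and 1754 in WT26 and 1619 and 1669 in Mettl14 KO. For these genes the log2 fold change was -0.02 for Il6st (SE 0.0559, adjusted p = 0.818, edgeR) and -0.08 for Stat3 (SE 0.0466, adjusted p = 0.155, edgeR).

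The second comparison sets Mettl3 KO cells against their parent RBC, which is a different control line, so that the libraries compared are not those of the first. Both tests come from 1 fit of all RNA-seq libraries and share its estimate of the spread. Here Stat3 and Pim3 had the largest falls, Il6st, Socs3 and Myc also fell, and Jak1 rose. No member passed the fold limit, with edgeR or with DESeq2, and 7.43% of the genes tested passed it in the lower direction with edgeR. By the adjusted p alone 8 members were lower, against 28.1% of genes, and 1 was higher, against 25.2%. The median was -0.39 over the members and -0.00164 over all genes. All 10 ES cell markers were lower in this comparison too, with a median of -0.60. The 6 neural markers summed to 1299 and 1273.7 in RBC and to 1445.3 and 1532 in Mettl3 KO, where 2 of the 5 tested were higher and 1 lower. Pax6 rose by 1.21 (adjusted p = 5.12e-06, edgeR), and Neurod1 fell by 1.19 (adjusted p = 5.93e-05, edgeR). The part of these markers in the changes was not tested.

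Stat3 had 1780 and 1782 normalized counts in RBC against 1064 and 1086 in Mettl3 KO, with replicates close together in both lines. It fell by 0.73 (SE 0.0479, adjusted p = 7.7e-10, edgeR), to 0.604 of its RBC level. Il6st had 3179.7 and 3216 in RBC against 2289.7 and 2423 in Mettl3 KO, and fell by 0.44 (SE 0.0562, adjusted p = 3.26e-06, edgeR). Jak1 was the exception, with 498.9 and 495.9 in RBC against 596.5 and 693 in Mettl3 KO. Both knockout libraries lay above both controls, and Jak1 rose by 0.37 (SE 0.0792, adjusted p = 0.00069, edgeR). Lifr had 4279.8 and 4464 in RBC against 4040.2 and 3902 in Mettl3 KO, and its small fall of -0.14 (SE 0.0506, adjusted p = 0.0281, edgeR) turned to 0.0133 when counts were scaled by library size, which moved the median of all genes by 0.15. Lifr did not pass without replicate 2 of RBC (adjusted p = 0.179) or of Mettl3 KO (adjusted p = 0.112).

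Among the Stat3 targets, Pim3 had 1396 and 1453 normalized counts in RBC against 795.7 and 943.8 in Mettl3 KO, and fell by 0.71 (SE 0.0733, adjusted p = 2.36e-07, edgeR). Socs3 had 1529 and 1419.6 in RBC against 875.7 and 1015 in Mettl3 KO, and fell by 0.64 (SE 0.0664, adjusted p = 2.63e-07, edgeR). In both genes the knockout libraries lay below the controls. Pim1 had 569 and 544.2 in RBC against 401.8 and 499.6 in Mettl3 KO, and its log2 fold change of -0.31 (SE 0.0935, adjusted p = 0.00995, edgeR) was no longer past the test without replicate 1 of Mettl3 KO (-0.15, adjusted p = 0.204) or of RBC (-0.28, adjusted p = 0.0528).

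Myc had 202.3 and 163.6 normalized counts in RBC against 118.3 and 119.9 in Mettl3 KO, and fell by 0.61 (SE 0.159, adjusted p = 0.00347, edgeR). Mycn had 532.2 and 597.4 in RBC against 498.3 and 502.6 in Mettl3 KO. Its log2 fold change of -0.18 (SE 0.0794, adjusted p = 0.0695, edgeR) did not pass the test, although the groups did not overlap. Max had 496.6 and 458.4 in RBC against 396.5 and 359.6 in Mettl3 KO, and fell by 0.33 (SE 0.0824, adjusted p = 0.00241, edgeR). Scaled by library size, Max (adjusted p = 0.0877) and Pim1 (adjusted p = 0.149) did not pass.

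**Figure D2:**
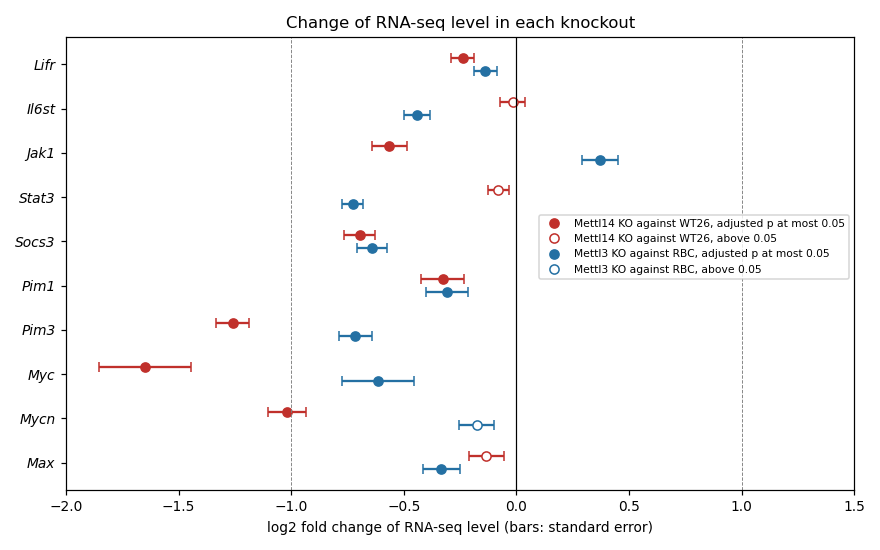
The log2 fold change of the RNA-seq level (x axis) of each member in Mettl14 KO against WT26 and in Mettl3 KO against RBC, with bars of 1 standard error and dashed lines at the fold limit. Filled points passed an adjusted p of at most 0.05. Only Pim3, Myc and Mycn in Mettl14 KO lie beyond the limit, and Jak1 lies on opposite sides of 0 in the 2 knockouts.

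Whether the change differed between the knockouts was tested as an interaction in the same edgeR fit. It differed for 6 of the 10 members, against 43.2% of the genes tested. The Mettl3 KO change was the higher one for Myc, by 1.04 (SE 0.264, adjusted p = 0.00399), for Jak1, by 0.94 (SE 0.112, adjusted p = 2.96e-06), for Mycn, by 0.84 (SE 0.115, adjusted p = 1.39e-05), and for Pim3, by 0.55 (SE 0.104, adjusted p = 0.000367). It was the lower one for Stat3, with -0.65 (SE 0.0668, adjusted p = 5.38e-07), and for Il6st, with -0.42 (SE 0.0792, adjusted p = 0.000314). The difference was 0.05 for Socs3 (SE 0.0957, adjusted p = 0.692) and 0.02 for Pim1 (SE 0.133, adjusted p = 0.921).

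The control lines also differed from each other. Between RBC and WT26, 4 of the 10 members differed, against 38.9% of the genes tested. Socs3 (0.37, SE 0.0658, adjusted p = 0.000205, edgeR) and Myc (0.55, SE 0.16, adjusted p = 0.0107, edgeR) were higher in RBC, and Jak1 (-0.47, SE 0.0791, adjusted p = 0.000116, edgeR) and Pim3 (-0.20, SE 0.0706, adjusted p = 0.0308, edgeR) were lower. The level of Jak1 in Mettl3 KO (596.5 and 693 normalized counts) therefore lay near that of WT26 (679.1 and 702.2), and the level of Jak1 in RBC (498.9 and 495.9) near that of Mettl14 KO (478.7 and 454.9). Likewise Myc in Mettl3 KO (118.3 and 119.9) fell inside the range of WT26 (104.9 to 146). Myc and Pim3 were no longer past the test with DESeq2 (adjusted p = 0.0859 and 0.104) or without replicate 1 of RBC, which left 2 members. Without replicate 1 of WT26 Myc did not pass (adjusted p = 0.199), and Pim3 did not without replicate 2 of WT26 (adjusted p = 0.316) or replicate 2 of RBC (adjusted p = 0.0592).

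Other genes of the pathway were read from hand-written lists. The lists were also chosen with earlier results of these data known, so their counts describe them and are no test of an excess. Their counts by the adjusted p stand beside the shares of all genes given above, 27% lower and 25.5% higher in Mettl14 KO and 28.1% lower and 25.2% higher in Mettl3 KO. Of 17 tested JAK-STAT components (cytokines, receptors, kinases, STATs and adaptors other than the members), 5 were lower and 1 higher by the adjusted p in Mettl14 KO, and 7 were lower and 4 higher in Mettl3 KO, with medians of -0.18 and -0.25. The 5 lower genes in Mettl14 KO are near the share of all genes. Genes beyond the fold limit in Mettl14 KO included Osm, a cytokine of the same family as LIF, with -2.54 (adjusted p = 5.52e-06, edgeR) and Il6ra, the receptor subunit for interleukin-6, with -1.13 (adjusted p = 6.9e-05, edgeR). Osm is a rare RNA, with 44.3 and 42.9 normalized counts in WT26 and 8 and 6.8 in Mettl14 KO. Cntfr, a receptor subunit for ciliary neurotrophic factor, fell in Mettl3 KO by 1.03 (adjusted p = 2.81e-06, edgeR). It had 152.8 and 160 normalized counts in WT26 and 133.2 and 135.4 in Mettl14 KO.

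Stat5b, a STAT that answers cytokines such as prolactin and growth hormone, rose in both knockouts. It had 80.5 and 92.3 normalized counts in WT26 and 236.4 and 204.6 in Mettl14 KO, a log2 fold change of 1.36 (SE 0.143, adjusted p = 3.59e-07, edgeR). In RBC it had 51.7 and 67, and in Mettl3 KO 132.2 and 137, a log2 fold change of 1.17 (SE 0.164, adjusted p = 1.05e-05, edgeR). Neither pair of groups overlapped. Of 15 JAK-STAT inhibitors other than Socs3, 5 were lower and 1 higher in Mettl14 KO and 2 lower and 6 higher in Mettl3 KO, with medians of -0.17 and 0.24, and the 5 are again near the share of all genes. Cish, a SOCS family inhibitor induced by STAT5, was past the fold limit in Mettl14 KO with -1.76 (adjusted p = 4.98e-05, edgeR) and lay just inside it in Mettl3 KO with -0.999 (adjusted p = 0.00157, edgeR). Cish is a rare RNA too, with 52.4 and 40.8 normalized counts in WT26 and 12 and 15.6 in Mettl14 KO.

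Of 15 tested Stat3 target genes in ES cells other than the members, 11 were lower and 2 higher by the adjusted p in Mettl14 KO, with a median of -0.65, and 9 were lower and 2 higher in Mettl3 KO, with a median of -0.21. Over all genes 27% and 28.1% were lower, and the medians were 0 and -0.00164. Nanog is on this list and also among the ES cell markers. Junb, an AP-1 transcription factor, had 532.6 and 629.1 normalized counts in WT26 and 182.3 and 145.2 in Mettl14 KO, and 634.6 and 647.7 in RBC against 144.4 and 183.3 in Mettl3 KO. Junb fell by 1.82 (adjusted p = 6.94e-10, edgeR) and by 1.98 (adjusted p = 2.18e-10, edgeR), in each case without overlap.

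Gbx2, a homeobox factor, fell by 1.76 in Mettl14 KO (adjusted p = 9.91e-10, edgeR), and Klf5, a pluripotency factor, fell by 1.72 in Mettl3 KO (adjusted p = 1.36e-11, edgeR) together with the immediate early gene Ier3, by 1.53 (adjusted p = 0.00117, edgeR). Ier3 had low counts, 32.2 and 30.6 normalized counts in RBC and 11.3 and 10.1 in Mettl3 KO. Each of these genes was also lower in the other knockout, without passing the rule with the fold limit. Gbx2 had 613.9 and 567.8 normalized counts in RBC and 271.3 and 335.4 in Mettl3 KO. Klf5 had 696.3 and 824.5 in WT26 and 539.8 and 528 in Mettl14 KO, and Ier3 had 34.4 and 39.7 against 16 and 28.3. Some listed genes went up. The immediate early genes Fos and Egr1 rose in Mettl14 KO by 1.37 (adjusted p = 1.19e-08, edgeR) and 1.03 (adjusted p = 1.27e-08, edgeR), while in Mettl3 KO their log2 fold changes were -0.08 and -0.04 (adjusted p = 0.633 and 0.728, edgeR). Cyp1b1, a cytochrome P450 enzyme, rose in Mettl3 KO by 1.12 (adjusted p = 0.00396, edgeR), from a low level of 23 and 14.8 normalized counts in RBC to 37.4 and 44.3. It had 3.6 and 6.4 in WT26 and 11 and 11.7 in Mettl14 KO.

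Of 21 other genes of the Myc-Max-Mxd network, 8 were lower and 2 higher in Mettl14 KO and 6 were lower and 8 higher in Mettl3 KO, with medians of -0.00252 and 0.13, and the 6 lower in Mettl3 KO are near the 28.1% of all genes. Mlxipl, a partner of Mlx that senses glucose, rose in both, by 2.07 (adjusted p = 7.99e-06, edgeR) and 1.22 (adjusted p = 0.000122, edgeR), from 9 and 18.3 normalized counts in WT26. Mxd4, a Max partner that represses, rose in Mettl3 KO by 1.27 (adjusted p = 7.62e-06, edgeR). Among 33 Myc target genes of ribosome biogenesis and growth metabolism, 13 were lower and 4 higher in Mettl14 KO (median -0.09) and 19 were lower and 3 higher in Mettl3 KO (median -0.30), against 27% and 28.1% of all genes lower. Tfrc, the transferrin receptor, was the 1 that passed the fold limit, with -1.24 in Mettl3 KO (adjusted p = 9.11e-12, edgeR). The larger fall of Myc was thus in Mettl14 KO, and the larger number of lower Myc target genes in Mettl3 KO, a difference between counts that was not tested. Between the control lines, 20 of these 33 genes were higher in RBC and 2 were lower. Their median was 0.21, beside -0.00699 over all genes. Of all genes 38.9% differed, a share that counts both directions, and the share higher in RBC is not given. Whether these genes went with the level of Myc was not tested.

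Genes were ranked over the 8 RNA-seq libraries by how closely their log2(normalized counts + 1) ran with that of Socs3. With the members left out, the closest of 11879 genes with a mean of at least 50 were Elac2 (Pearson r of 0.997), Zc3h12a (0.993) and Fstl1 (0.992). For Myc they were Mri1 (0.988), Npr1 (0.986) and Glul (0.984). These are descriptions over 4 lines with 2 replicates each, which share their line and library.

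The input libraries of MeRIP-seq give a further reading of the levels, at a lower precision. No member passed the test there, in comparisons where 0.398% (Mettl14 KO against WT26) and 0.76% (Mettl3 KO against RBC) of 22621 features did. At an unadjusted p under 0.05, 3 members (Myc, Pim3 and Pim1) passed in Mettl14 KO and 0 in Mettl3 KO, against 10.6% and 11.7% of features, and with DESeq2 1 and 0 passed. The directions of the larger RNA-seq changes were seen again as values. In Mettl14 KO the log2 fold change of the input level was -2.07 for Myc (SE 0.672, adjusted p = 0.232, edgeR), -1.13 for Pim3 (SE 0.333, adjusted p = 0.17, edgeR) and -0.96 for Mycn (SE 0.457, adjusted p = 0.485, edgeR). Myc was at 24 and 27 reads in the Mettl14 KO inputs and at 220 and 86 in the WT26 inputs.

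In Mettl3 KO the input values were -0.46 for Stat3 (SE 0.297, adjusted p = 0.63, edgeR), -0.66 for Socs3 (SE 0.61, adjusted p = 0.778, edgeR) and -0.64 for Pim3 (SE 0.33, adjusted p = 0.498, edgeR), and 0.18 for Jak1 (SE 0.215, adjusted p = 0.843, edgeR). The spread in these fits is shared with the IP libraries. With the compared input libraries alone, 3 members passed in Mettl14 KO (Pim3, Myc and Mycn) and 4 in Mettl3 KO (Il6st, Stat3, Socs3 and Pim3), all lower, in fits that called 1069 of 19344 and 2199 of 19146 features in either direction.

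**Figure D3:**
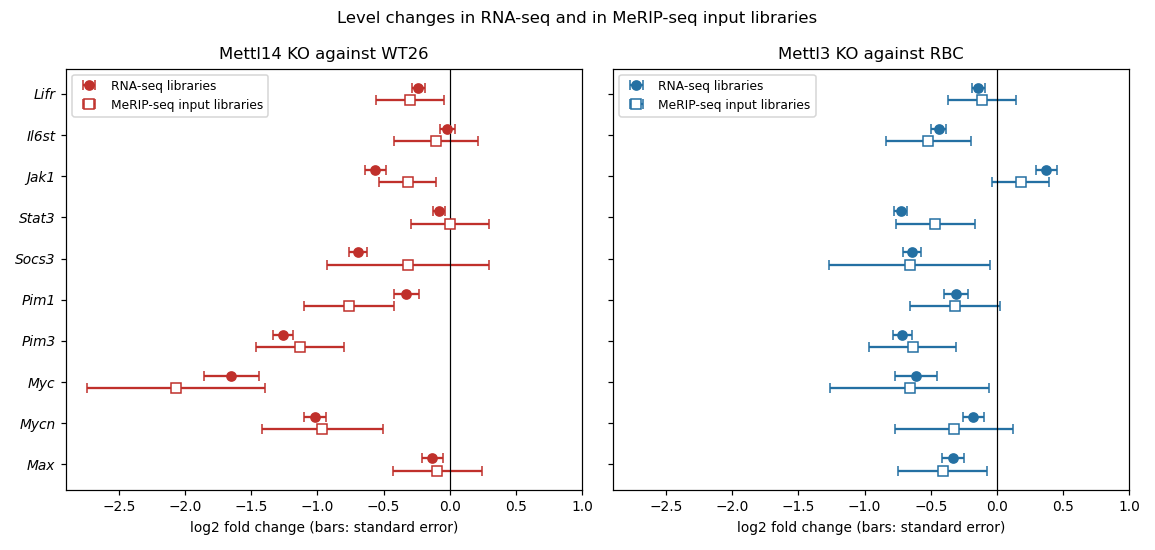
The log2 fold change (x axis) of each member in Mettl14 KO against WT26 and in Mettl3 KO against RBC, from RNA-seq libraries (circles) and from MeRIP-seq input libraries (open squares), with bars of 1 standard error. The largest falls of RNA-seq, Myc, Pim3 and Mycn in Mettl14 KO, are also the lowest input values, and the input bars are the wider ones.

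The IP libraries ask which of these transcripts are caught by the m6A antibody. In WT26, transcripts of the 2 Myc genes, Max, Socs3 and Pim3 were enriched in IP over input, while Stat3 was depleted. Enrichment was called where edgeR, fitted on all 16 MeRIP-seq libraries, gave an adjusted p no higher than 0.05 and a log2 fold change above 1. That rule was met by 5 of the 10 members in WT26 against 14.5% of the features tested, by 4 in Mettl14 KO (Socs3, Myc, Mycn and Max) against 11.9%, by 3 in RBC (Myc, Mycn and Max) against 13.4%, and by 0 in Mettl3 KO against 2.54%. At an unadjusted p under 0.05, 2 members passed in Mettl3 KO, against 25.7% of features, and with DESeq2 2 members were enriched there, Myc and Mycn.

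These calls rest on the libraries numbered 2, in which the IP separated genes more in every line. Without replicate 2 of its line, no member was enriched in WT26, in Mettl14 KO or in RBC, and without replicate 1 of WT26 fewer were than in the full fit. Over all features, 0 were enriched without replicate 2 of WT26 (of 23645 tested), of Mettl14 KO (of 23897) or of RBC (of 23938). The SD of log2 IP over input across genes with a mean of at least 50 was 0.893 in replicate 1 and 1.4 in replicate 2 of WT26. The same pair of values was 0.858 and 1.4 for Mettl14 KO, 0.816 and 1.37 for RBC, and 0.733 and 0.934 for Mettl3 KO. The libraries numbered 2 are also the shallower ones, as given above. The cause of the difference was not tested, and values are given for each replicate.

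Myc had 427 and 765.5 normalized counts in the IP and 172.9 and 130.2 in the input of WT26, a log2 IP over input of 1.3 and 2.55. Mycn had 1042 and 1524 in the IP and 384.2 and 292.2 in the input, or 1.44 and 2.38. In all 4 lines both replicates of both genes were above 0, with Myc from 0.83 to 2.86 and Mycn from 0.91 to 2.72. The fitted value in WT26 was 1.97 for Myc (SE 0.597, adjusted p = 0.024, edgeR) and 1.92 for Mycn (SE 0.454, adjusted p = 0.00979, edgeR), and in Mettl14 KO 2.80 (SE 0.675, adjusted p = 0.014) and 2.11 (SE 0.466, adjusted p = 0.0112).

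Socs3 had 1375 and 3167 normalized counts in the IP and 501.3 and 808.5 in the input of WT26, a log2 ratio of 1.45 and 1.97. In Mettl14 KO its IP counts were 743.4 and 3334, a wide gap between replicates. The fitted value was 1.8 in WT26 (SE 0.62, adjusted p = 0.0394, edgeR), 1.95 in Mettl14 KO (SE 0.626, adjusted p = 0.0361) and 1.72 in RBC (SE 0.618, adjusted p = 0.0502), where it missed the limit narrowly. With other settings it ran from an adjusted p of 1.63e-06 without a filter on low counts to 0.627 without replicate 2 of RBC, and it passed in 7 of 10. Max had 0.86 and 1.62 in WT26, with a fitted value of 1.27 (SE 0.334, adjusted p = 0.0138, edgeR), and Pim3 had 0.84 and 1.24, with 1.07 (SE 0.328, adjusted p = 0.0251, edgeR).

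Stat3 went the other way, with more normalized counts in input than in IP in all 8 pairs. In WT26 it had 776.4 and 449.8 normalized counts in the IP and 1295 and 1493 in the input. The fitted log2 IP over input was -1.18 in WT26 (SE 0.3, adjusted p = 0.0123, edgeR), -1.15 in Mettl14 KO (adjusted p = 0.0174), -1.08 in RBC (adjusted p = 0.0207) and -0.62 in Mettl3 KO (SE 0.298, adjusted p = 0.209). Its 72 exon bases shared with Stat5a on the other strand are few of 9527. Il6st was positive in all pairs, with 0.90 in WT26 (adjusted p = 0.0441) below the fold limit, Lifr had 0.30 (adjusted p = 0.368), and Jak1 was near 0 with -0.12 (adjusted p = 0.675). Scaling by library size moved the median of all features up by 0.42 in WT26, and Stat3 was then at -0.74 and no longer past the test (adjusted p = 0.0718), as it also was not without replicate 2 of WT26 (-0.73, adjusted p = 0.378).

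**Figure D4:**
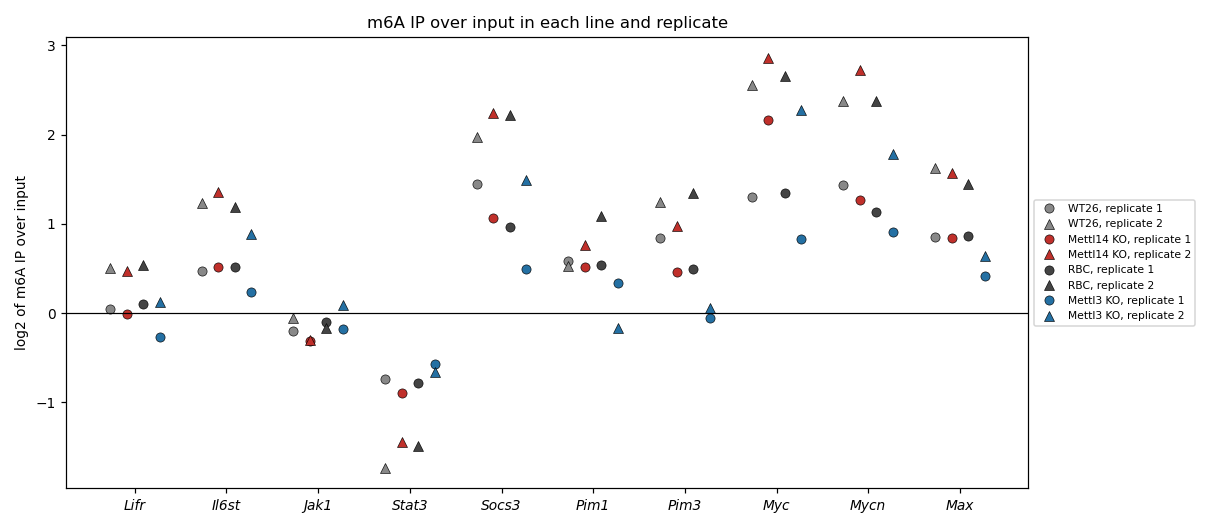
The log2 of m6A IP over input (y axis) of each member in each line, with circles for replicate 1 and triangles for replicate 2. Myc, Mycn, Socs3 and Max lie above 0 and Stat3 below 0 in every pair, triangles lie farther from 0 than circles for most members, and the Mettl3 KO points lie nearest to 0 for Stat3, Pim3 and Max.

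The last comparison asks whether IP over input changed in the knockouts, which is the difference between a knockout's log2 IP over input and its parent's. In Mettl14 KO the members scattered around 0, and in Mettl3 KO most were lower, Pim3 the furthest. No member passed the edgeR test in any of 3 comparisons, and neither did any feature: 0% for Mettl14 KO against WT26, 0% for Mettl3 KO against RBC and 0% for RBC against WT26. At an unadjusted p under 0.05, 126, 787 and 133 of the 22621 features passed (0.557%, 3.48% and 0.588%), and 0 members did in each. With no change in any feature, a share of about 0.05 would fall under that limit. The test was thus a cautious one, and the absence of calls does not show that nothing changed. DESeq2 called 1, 0 and 0 features. Standard errors of the members in the knockout comparisons were between 0.30 and 0.88, and the change of Pim3 in Mettl3 KO (-0.97, SE 0.464) was not past the test.

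In Mettl14 KO against WT26 the fitted change was lower for 3 members and higher for 7, with a median of 0.06 against 0.02 over all features. The extremes were Pim3 with -0.29 (SE 0.463) and Myc with 0.83 (SE 0.879). Within replicate number 1 the median of the members was -0.09 and within number 2 it was 0.18. Myc was higher in both (0.86 and 0.31), Pim3 lower in both (-0.37 and -0.26), and Socs3, Stat3, Pim1 and Mycn changed sign between the numbers.

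In Mettl3 KO against RBC the fitted change was lower for 8 members and higher for 2, Stat3 and Jak1, with a median of -0.43 against 0.00817 over all features. Within replicate number 1 the median was -0.33 with 9 lower, and within number 2 it was -0.51 with 8 lower. Pim3 had -0.55 and -1.29 in the numbered pairs, with IP counts of 932 and 1551 in RBC against 417.8 and 395.5 in Mettl3 KO. Both knockout IP libraries lay below both controls, and so did the inputs (659.9 and 607.1 in RBC, 434.2 and 380.5 in Mettl3 KO). The fitted change of Pim3 was -0.97 (SE 0.464, adjusted p = 0.854, edgeR), from 0.97 in RBC to -0.00356 in Mettl3 KO.

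Pim1 had -0.20 and -1.25 within the numbers, with a fitted change of -0.73 (SE 0.475, adjusted p = 0.854, edgeR). Socs3 had -0.48 and -0.73, with a fitted change of -0.70 (SE 0.855, adjusted p = 0.857, edgeR), which was 0.0603 without replicate 2 of RBC. Max had -0.44 and -0.81, with a fitted change of -0.66 (SE 0.469, adjusted p = 0.854, edgeR). Stat3, the member depleted in IP, moved toward 0 with 0.21 and 0.83, and its fitted change was 0.46 (SE 0.419, adjusted p = 0.854, edgeR). In this knockout the 8 members above 0 in RBC thus had lower values and Stat3, the member farthest below 0, a higher one, while the SD across genes was also smaller than in RBC in both replicates.

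A fit chosen after the data were seen let the IP effect differ between the replicate numbers, alike in all lines, with input and IP of a replicate as a pair. In it 4 members were lower in Mettl3 KO than in RBC, against 7.58% of features: Pim3 with -0.91 (SE 0.191, adjusted p = 0.00767, edgeR), Max with -0.62 (SE 0.196, adjusted p = 0.0395), Socs3 with -0.60 (SE 0.191, adjusted p = 0.0397) and Pim1 with -0.69 (SE 0.227, adjusted p = 0.0478). In the same fit 0 members were lower in Mettl14 KO than in WT26, against 0.0265% of features, and 0 in RBC than in WT26, against 0.00884%. Myc, at -0.46 in Mettl3 KO (SE 0.216, adjusted p = 0.158), and Mycn, at -0.41 (SE 0.188, adjusted p = 0.148), did not pass. Nothing in the labels says that libraries of the same number were made together, so these calls depend on that reading of the numbers.

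**Figure D5:**
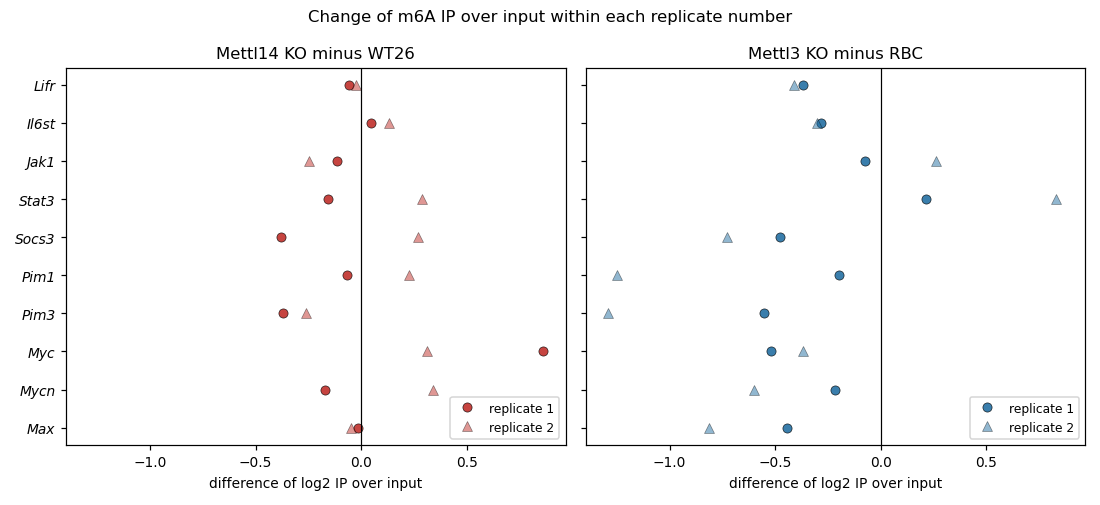
The difference of log2 IP over input (x axis) between knockout and parent for each member, within replicate number 1 (circles) and number 2 (triangles). In Mettl14 KO the points lie on both sides of 0, and in Mettl3 KO both points lie below 0 for all members except Stat3 and Jak1.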

How the data were processed

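The authors deposited unnormalized counts, by gene for RNA-seq and by gene or repeat subfamily for MeRIP-seq. For MeRIP-seq they trimmed with cutadapt 1.8.1, aligned to GRCm38 with STAR 2.6.0c (up to 100 positions per read), counted with TEtranscripts and combined 3 MeRIP reactions per replicate. The submitters' processing notes also name FastQC and DESeq2 1.26.0, and the counting tool and strand setting of RNA-seq are not given in the sources used here.

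Counts were tested here in R 4.3.3 with edgeR 4.0.16 (glmQLFit, glmQLFTest), with size factors from DESeq2 1.42.0, filterByExpr (17021 genes, 22621 features) and Benjamini-Hochberg adjustment, and all libraries of a table in 1 fit. Log2 IP over input per replicate used a pseudocount of 0.5. Totals set counting error only. Exon lengths and positions are from GENCODE on GRCm38, and 47310 of 47937 identifiers matched. The 10 members and the lists were chosen with earlier results of these data known. Other genes are named when an RNA-seq comparison of a knockout with its parent put them past the fold limit, at most 4 for each list and comparison, with the 3 genes most like Socs3 and Myc. A gene that met this rule is not reported here. Scripts were tested on simulated data.

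Alternatives were other scalings (TMM, library size, genes alone), other filters (none, at least 10 counts in every library), DESeq2's Wald test, the compared libraries alone, replicate blocks and leaving out each replicate. The block with an IP term and the block with crossed numbers were chosen after seeing the data. Peak calls were not analysed here.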

Additional observations from a re-analysis of the deposited data

Results flagged for a closer look

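The RNA-seq change differed between the knockouts for 6 members, by the interaction term of the edgeR fit on all 8 libraries (change in Mettl3 KO minus change in Mettl14 KO, log2), against 43.2% of all 17021 genes, so that the count is not far from that share. The difference was 1.04 for Myc, 0.94 for Jak1, 0.84 for Mycn, 0.55 for Pim3, -0.65 for Stat3 and -0.42 for Il6st. Each knockout has its own parent line, and the parents differed from each other in Jak1, Pim3, Myc and Socs3, so the difference between the knocked-out genes and the difference between the lines cannot be told apart. No group had the 4 samples that a search for single outlying libraries needs.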

How the results depend on the processing

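In RNA-seq, the falls of Pim3, Myc and Mycn in Mettl14 KO kept their direction and an adjusted p of at most 0.05 in every alternative. By the adjusted p alone 7 members passed in Mettl14 KO, 9 in Mettl3 KO and, for IP over input in RBC, 6. These counts hold both directions, with Jak1 higher in Mettl3 KO and Stat3 depleted in the IP of RBC. The share of all features past the adjusted p alone is not given for IP over input. Of RBC against WT26, 2 members passed with DESeq2 and 2 to 3 when a replicate was left out. Scaling by library size moved the median of all genes by 0.15 in Mettl3 KO against RBC and by -0.15 in RBC against WT26. It turned Lifr in Mettl3 KO to 0.0133 and, in RBC against WT26, Lifr to -0.10, Il6st to -0.0278, Stat3 to -0.11 and Pim1 to -0.05. With a replicate left out, Il6st in Mettl14 KO ran from -0.11 to 0.0787, and the difference between the knockouts ran from -0.14 to 0.17 for Pim1 and from -0.0559 to 0.16 for Socs3. Over 8 RNA-seq libraries the replicate numbers were not taken to pair the samples, since the labels name no shared batch and there are only 2 numbers. The correlation of same-numbered deviations across 11879 genes was -0.07 for WT26 and Mettl14 KO, 0.45 for RBC and Mettl3 KO and -0.17 for WT26 and RBC. A replicate block left 3 members called in Mettl14 KO and 0 in Mettl3 KO, and all genes called went from 2471 to 2464 and from 2312 to 2285. Requiring at least 10 counts in every library left 1321 and 1243 genes called, of 13825 tested. DESeq2 called 4155 genes in RBC against WT26 (6619 with edgeR) and 4792 for the difference between the knockouts (7346). With the WT26 numbers crossed, chosen after seeing the data, the replicate block called 4 members and 6508 genes in RBC against WT26, against 6619 without it.

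For IP over input, leaving out a replicate gave 0 to 2 enriched members in WT26, 0 to 5 in Mettl14 KO and 0 to 4 in RBC. Scaling by library size gave 7 in Mettl14 KO, 7 in RBC and 2 in Mettl3 KO. In Mettl3 KO no filter on low counts gave 3, DESeq2 2 and the compared libraries alone 3. Over all features, 575 were enriched in Mettl3 KO, 1096 with DESeq2, 1565 with no filter, 1446 with the compared libraries alone and 2522 scaled by library size. That scaling moved the median by 0.37 to 0.46 in the 4 lines and gave 5681 enriched features in WT26 (3272 otherwise), 5113 in Mettl14 KO (2692) and 5827 in RBC (3030). Scaling by library size put Jak1 at 0.29 in WT26, 0.12 in Mettl14 KO, 0.32 in RBC and 0.36 in Mettl3 KO, and Lifr at 0.32 and Pim3 at 0.38 in Mettl3 KO. In Mettl3 KO, Pim3 was at 0.0236 with TMM normalization, and with the compared libraries alone Pim3 was at 0.0345 and Jak1 at 0.00725. With a replicate of Mettl3 KO left out, Lifr ran from -0.27 to 0.12, Jak1 from -0.17 to 0.092, Pim1 from -0.17 to 0.34 and Pim3 from -0.057 to 0.052.

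The change of IP over input in Mettl14 KO turned in sign for 7 members when a replicate was left out: Il6st ran from -0.38 to 0.52, Socs3 from -0.73 to 0.50, Mycn from -0.65 to 0.81, Max from -0.42 to 0.43, Lifr from -0.31 to 0.21, Stat3 from -0.41 to 0.58 and Pim1 from -0.0377 to 0.21. In Mettl3 KO, Il6st ran from -0.65 to 0.052, Socs3 from -1.23 to 0.0603, Myc from -1.13 to 0.32, Mycn from -0.97 to 0.30 and Jak1 from -0.0343 to 0.23, while Lifr, Pim1, Pim3 and Max stayed lower in all 13 alternatives. In MeRIP-seq, the difference of log2 IP over input between replicates 2 and 1 correlated between lines at 0.53 to 0.77 across 12716 genes. This is a hint from the data, with only 2 numbers, and the ratios hold the input libraries as well as the IP. With input and IP paired in a replicate block, Socs3 was at -0.0548 and Max at -0.0318 in Mettl14 KO, and with the IP term at -0.0562 and -0.0306, and the IP term gave 4 members past the test in Mettl3 KO. For the input level, Mettl14 KO had 2 members past the test with no filter, 1 with DESeq2, 1 with a replicate block and 3 with the compared libraries alone, and Mettl3 KO had 4 with the compared libraries alone. Over all features, the input level of Mettl14 KO gave 90 calls and 409 with DESeq2, 549 with no filter, 377 with a replicate block and 1069 with the compared libraries alone. That of Mettl3 KO gave 172 and 462, 612, 444 and 2199. Stat3 in Mettl14 KO was at -0.00341 with TMM normalization, -0.0156 scaled by library size, -0.0123 with the compared libraries alone and -0.10 to 0.10 with a replicate left out, where Socs3 ran from -0.88 to 0.10 and Max from -0.20 to 0.0034. Scaled by library size, Lifr in the Mettl3 KO input was at 0.0097. The cause of these changes was not tested. Myc is limited by depth, with 24 and 27 reads in the Mettl14 KO inputs.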

Other observations

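The lists of pathway genes were also read in the IP libraries, where 14.5% of all features were enriched in WT26, 11.9% in Mettl14 KO, 13.4% in RBC and 2.54% in Mettl3 KO. Of 15 Stat3 target genes in ES cells, 8 were enriched in IP over input in WT26, 7 in Mettl14 KO, 9 in RBC and 0 in Mettl3 KO, with median log2 values of 1.22, 1.17, 1.16 and 0.48. Of 15 JAK-STAT inhibitors, 5, 4, 5 and 0 were enriched. Of 17 JAK-STAT components 2, 1, 3 and 0 were, and of 21 other genes of the Myc-Max-Mxd network 3, 3, 3 and 0. In WT26 these 2 lists were near the share of all features. Of 10 ES cell markers 5, 4, 4 and 1 were enriched, and of 5 neural markers 4, 4, 4 and 1, so enrichment was not particular to the Stat3 targets. Of 33 Myc target genes of ribosome biogenesis and growth metabolism, 2 were enriched in WT26, 2 in Mettl14 KO, 2 in RBC and 1 in Mettl3 KO, the last near the share of all features. The median change of IP over input in Mettl3 KO against RBC was -0.67 for the Stat3 targets, -0.61 for the inhibitors and 0.40 for the Myc targets, beside 0.00817 over all features. It was -0.26 for the JAK-STAT components, -0.04 for the Myc-Max-Mxd network, -0.201 for the ES cell markers and -0.265 for the neural markers. In each of these lists 0 genes passed the test.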
